A study of Mus musculus with 4 samples.

Results

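The long CG losses are the autosomal regions of 500 bp or more in which the authors called CG methylation lower in the Nsd1 conditional knockout (cKO) than in control mouse somatosensory cortex. There are 2195 of them among the 101350 regions of the authors' deposited table, of which 46832 are CG regions on autosomes. They were chosen by the sign of the group difference and by length, so their lower level in cKO is the rule and not a result. The tissue is somatosensory cortex taken at 2.5 months of age, and its DNA was sequenced after bisulfite treatment, which leaves methylated cytosines readable as cytosines. The cKO group, labelled Nsd1Nex-cKO, has 2 libraries and the control group, labelled Nsd1fl/+, has 2. The labels do not say whether the controls carry the Nex driver, nor whether the libraries came from separate mice. Each region has 1 mean level per group and no value per library. No spread between libraries and no test of a difference can therefore be given, depth is unknown, and all comparisons below describe the listed regions.

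DNA methylation in mammals sits mainly on the cytosine of a CG pair, which reads the same on both strands, so that 1 pair holds 2 cytosines. NSD1 methylates the lysine known as H3K36 on histones, which gives a mark found over broad stretches between genes, and DNMT3A, which adds methyl groups to new sites, can bind that mark through its PWWP domain. Nex (Neurod6) is expressed in excitatory neurons of the cortex and hippocampus, and Cre drivers built on it act in those cells. The tissue also holds inhibitory neurons, glia and vessel cells, and in such bulk DNA a lower level in all cells and a full loss in some of them cannot be told apart.

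Most of the long CG losses lie away from gene starts, so the few start windows inside them, shown here as examples of sequence, do not stand for all 2195 regions. The RefSeq start table (GRCm38.p6, the assembly of mm10) gives the 250 bases before a transcript start. Of the windows that lie wholly within a long CG loss, 12 belong to starts of protein-coding genes, among them several overlapping ones of Tmem176a and Tmem176b in 1 region, and 21 to starts of lncRNA genes. Shown here are the protein-coding window with the most CG pairs, 2 others with some and 1 with none, followed by lncRNA windows at Tbx1, Prdm16 and Emx1, all chosen after their values were seen. Capitals mark CG pairs, and each window is written 5′ to 3′ on the strand of its gene.
Abca4, chr3:122044210-122044459, plus strand: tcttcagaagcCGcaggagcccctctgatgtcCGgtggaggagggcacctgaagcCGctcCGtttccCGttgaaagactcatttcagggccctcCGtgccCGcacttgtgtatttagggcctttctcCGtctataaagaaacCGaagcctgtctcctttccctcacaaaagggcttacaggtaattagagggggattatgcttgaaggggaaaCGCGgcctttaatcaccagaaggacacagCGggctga
Fmo5, chr3:97628769-97629018, plus strand: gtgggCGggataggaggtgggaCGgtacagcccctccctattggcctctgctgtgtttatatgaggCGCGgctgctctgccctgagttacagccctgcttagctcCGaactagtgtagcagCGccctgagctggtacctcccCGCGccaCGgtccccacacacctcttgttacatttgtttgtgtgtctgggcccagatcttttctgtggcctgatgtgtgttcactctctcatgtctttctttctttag
Dnah5, chr15:28203516-28203765, plus strand: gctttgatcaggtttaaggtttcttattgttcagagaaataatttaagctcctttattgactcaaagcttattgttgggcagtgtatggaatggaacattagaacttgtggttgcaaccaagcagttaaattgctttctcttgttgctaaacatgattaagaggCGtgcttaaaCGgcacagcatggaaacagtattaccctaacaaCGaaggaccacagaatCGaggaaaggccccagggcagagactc
Mlc1, chr15:88978554-88978803, minus strand: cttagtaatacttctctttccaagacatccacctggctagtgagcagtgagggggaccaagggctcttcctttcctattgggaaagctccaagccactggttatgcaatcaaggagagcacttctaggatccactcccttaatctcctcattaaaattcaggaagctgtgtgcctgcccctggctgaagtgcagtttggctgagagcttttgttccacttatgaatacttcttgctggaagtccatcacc
Gm35369 in Tbx1, chr16:18588549-18588798, plus strand: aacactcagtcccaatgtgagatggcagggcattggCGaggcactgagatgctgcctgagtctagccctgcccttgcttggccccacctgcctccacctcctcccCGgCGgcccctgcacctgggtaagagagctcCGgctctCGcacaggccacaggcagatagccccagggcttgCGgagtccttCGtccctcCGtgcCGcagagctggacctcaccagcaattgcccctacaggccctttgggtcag
Gm13133 in Prdm16, chr4:154550032-154550281, plus strand: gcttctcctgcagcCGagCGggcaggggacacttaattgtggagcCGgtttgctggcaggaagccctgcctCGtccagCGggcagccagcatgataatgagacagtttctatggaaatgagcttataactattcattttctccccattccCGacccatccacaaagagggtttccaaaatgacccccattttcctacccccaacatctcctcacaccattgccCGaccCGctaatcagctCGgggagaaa
Gm33200 beside Emx1, chr6:85165585-85165834, plus strand: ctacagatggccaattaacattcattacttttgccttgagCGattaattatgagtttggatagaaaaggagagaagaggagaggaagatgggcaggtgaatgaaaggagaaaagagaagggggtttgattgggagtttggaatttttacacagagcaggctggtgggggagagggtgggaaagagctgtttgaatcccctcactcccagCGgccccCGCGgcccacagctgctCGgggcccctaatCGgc

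These windows hold 12 CG pairs in Abca4, 9 in Fmo5, 4 in Dnah5 and 0 in Mlc1. The lncRNA windows hold 9 in Gm35369, 9 in Gm13133 and 6 in Gm33200. Over all protein-coding starts on autosomes other than 18, which the start table does not cover here, the median window holds 10 pairs and 51.3% hold 10 or more. Among the 12 protein-coding windows inside long CG losses the median is 3 pairs, and for the 21 lncRNA windows it is 5. The overlapping Tmem176a and Tmem176b windows, all in 1 region, hold 1 or 3 pairs each. They are counted separately among the 12, so that 1 place weighs on this median. The region around the Abca4 window (a retinal lipid transporter gene) had a CG level of 60.7% in control and 22.6% in cKO. Around that of Fmo5, a flavin monooxygenase gene, the levels were 37.4% and 13.8%. Around that of Mlc1, a membrane protein of astrocyte endfeet, they were 69.2% and 27.7%, although no CG pair lies in the window itself. The region that covers the Gm35369 start lies in Tbx1, a T-box transcription factor gene, at 39.9% in control and 15.7% in cKO. The region over the Gm13133 start, in the transcription factor gene Prdm16, stood at 49.4% and 17.6%. That over the Gm33200 start, 21.8 kb from the cortical transcription factor gene Emx1, stood at 68.5% and 29.8%.

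Long regions went almost wholly one way. Of all 46832 autosomal CG regions in the table, 44244 (94.5%) were lower in cKO, and of the 2209 of 500 bp or more, 2195 (99.4%) were. They make up 4.96% of the autosomal CG losses, 19.1% of the base pairs those losses cover (1.53 Mb) and 12.2% of their cytosines. Lengths ran from 500 to 2341 bp with a median of 632 bp. Just inside the limit, at 500 bp, lay regions 268 kb from Fbxo33 (75.3% in control, 40.1% in cKO) and 365 kb from Nr5a2 (74.4%, 45.9%). Just outside, 1 bp short of the limit, lay regions in Dupd1 (87.3%, 50.3%) and near Lrrc1 (78.6%, 55.0%).

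Methylation in these regions was high in control and went to intermediate rather than to low levels in cKO. The median level was 74.2% in control (quartiles 66.6% and 81.0%) and 36.4% in cKO (quartiles 29.0% and 44.1%). The median difference, cKO minus control, was -36.5 points, with quartiles of -39.9 and -33.2 and extremes of -57.8 and -13.2. Expressed as a share of the control level, the median region kept 49.4% in cKO, and 52.3% of the regions kept 50% or less. A cKO level under 20% was reached in 147 regions (6.70%, 95% exact binomial interval 5.69% to 7.82%, which covers the counting of regions only), and in 6.62% of the CG losses under 500 bp. Those shorter losses had medians of 76.1% in control and 42.8% in cKO, a median difference of -30.9 points, and kept 57.0%.

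**Figure D1:**
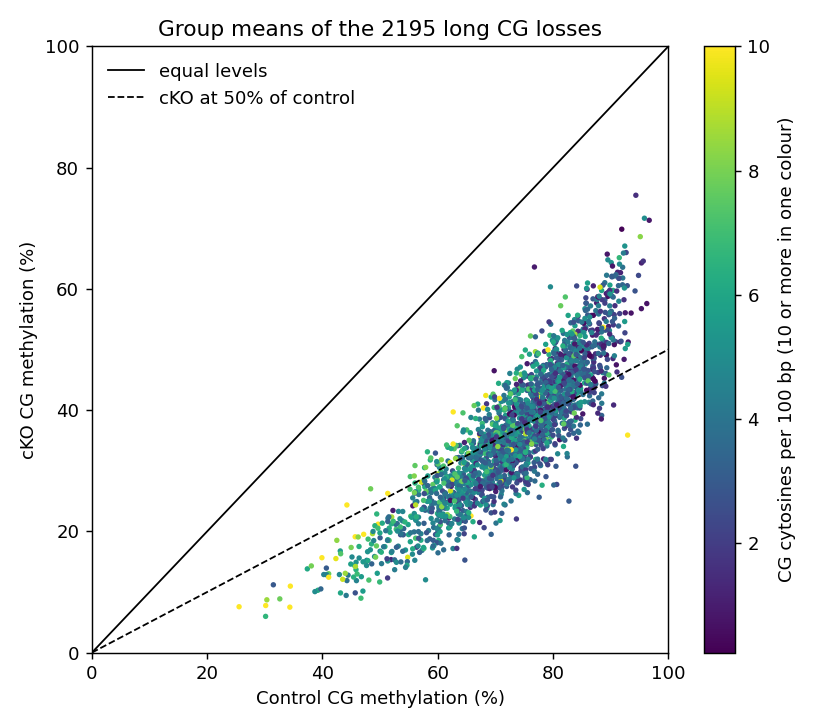
Group mean CG methylation of the 2195 long CG losses, control on the x axis and cKO on the y axis, both in percent; each point is 1 region, coloured by CG cytosines per 100 bp, and the dashed line marks 50% of the control level. The points lie in a narrow band far below the line of equal levels, crossing the dashed line near a control level of 75%.

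The share of methylation kept differed with the control level. The 78 regions with a control level under 50% stood at 45.7% (control) and 14.4% (cKO) by the median, and kept 31.9%. Those between 70% and 80% in control (811 regions) had a cKO median of 37.1% and kept 50%. The 69 regions at 90% or more in control had a cKO median of 58.2% and kept 63.3%. In points, the median difference was smaller at both ends, -29.7 in the first group and -33.5 in the last, against -37.4 in the middle one. Over all 2195 regions the group means ranked alike (Spearman's rank correlation 0.89, Pearson r 0.89), a description of regions that share the same libraries. Regions were listed for their difference, which lay in a narrow range (quartiles -39.9 and -33.2 points). With nearly equal differences, this ranking and a kept share that rises with the control level follow largely by arithmetic.

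Regions that started low ended near the unmethylated end of the scale. The lowest control level was that of a region in Lca5l, with 25.5% in control and 7.57% in cKO. In a region 11.5 kb from Chit1, a chitinase gene, the level was 30.1% in control and 5.98% in cKO, the lowest cKO level of the set. In a region shared by Smim38 and Tpcn2 it was 30.2% and 7.77%. Close to Neurod1, a proneural bHLH transcription factor, one region had 30.4% in control and 8.71% in cKO. A region 183 kb from Myt1l, a transcription factor of the neuronal lineage, had 31.5% and 11.2%. At the other end of the control range, the region 132 kb from Tns3, a focal adhesion gene, went from 96.7% to 71.3%. That 35.9 kb from the aminopeptidase gene Xpnpep1 went from 95.8% to 71.6%. Regions in Herc6 (96.3% and 57.6%), 161 kb from Ddx10 (95.6% and 64.6%) and 4.61 kb from Tbc1d4 (95.3% and 64.3%) completed the 5 highest control levels. The Tns3, Herc6 and Tbc1d4 means rest on 5, 5 and 7 cytosines.

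Long CG losses were sparser in CG pairs than shorter CG losses and CG gains. A density for the genome at large was not computed, so sparse here is relative to listed regions only. They held a median of 26 cytosines in CG context, counted on both strands, or 3.80 per 100 bp (quartiles 2.69 and 5.11). The 42049 CG losses under 500 bp held a median of 9 cytosines, or 7.32 per 100 bp (quartiles 5.35 and 9.62), and the 2588 CG gains 11, or 11.0 per 100 bp (8.33 and 14.4). A density of 10 or more was found in 20 long losses (0.911%), in 22.3% of the shorter losses and in 59.0% of the gains. This contrast is partly set by the table itself, since no listed region has fewer than 4 cytosines, so that short regions cannot be sparse. Among regions with at least 10 cytosines, a limit added after seeing the data, the medians were 3.99 per 100 bp in 2016 long losses and 7.93 in 19345 shorter ones. This higher minimum also binds short regions more than long ones. It therefore cannot tell how much of the contrast the table sets.

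**Figure D2:**
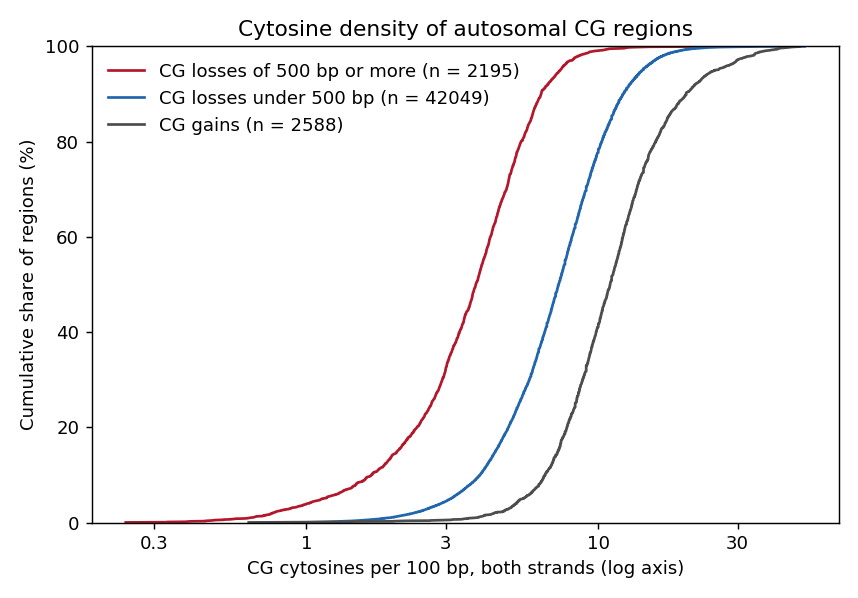
Cumulative share of autosomal CG regions (y axis, percent) by the number of CG cytosines per 100 bp on both strands (x axis, log scale) for CG losses of 500 bp or more, CG losses under 500 bp and CG gains. The curve of the long losses lies to the left, with a median of 3.80 against 7.32 for shorter losses and 11.0 for gains.

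Most of the densest long losses overlapped genes, and by the median the densest group started from a lower control level. The 20 regions with 10 or more cytosines per 100 bp had a control median of 56.2% and a cKO median of 23.4%, and 65% of them overlapped a protein-coding gene. In the 316 regions with under 2 per 100 bp the medians were 78.9% and 41.1%, and 18.4% overlapped one. Across all 2195 regions density and control level ran weakly against each other (Spearman's rank correlation -0.32, Pearson r -0.38). The densest were in Lca5l (21.2 cytosines per 100 bp), the sulfurtransferase gene Mpst (20.6), Podnl1 (15), Tbx1 (14.3) and the lipid kinase gene Pik3c3 (13.2). Podnl1 had 62.7% in control and 34.4% in cKO, and Pik3c3 41.1% and 12.4%.

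At the sparse end, a level stands for very few sites. Fewer than 10 cytosines were present in 179 long losses (8.15%). The region 197 kb from Stmn2, a neuronal microtubule regulator, covers 1661 bp with 4 cytosines, at 66.6% in control and 32.5% in cKO. The regions assigned to Tbl1xr1 (91.9% and 69.8%), Phkb (86.4% and 49.0%), Rnpc3 (83.5% and 42.2%) and Sptlc3 (84.9% and 49.8%) also hold 4 cytosines each, over 1216, 1195, 1036 and 990 bp. They lie 673, 24.9, 22.3 and 364 kb from these genes. On both strands, 4 cytosines amount to 2 CG pairs.

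None of the 10 longest regions had the highest control level or the largest difference of the set. The first, of 2341 bp with 58 cytosines, lies 32.6 kb from Myb, a transcription factor of blood progenitors (chr10:21193577-21195917), at 79.8% in control and 40.6% in cKO. The second, of 2099 bp with 73 cytosines, lies in Sfrp1, a secreted Wnt antagonist (chr8:23424968-23427066), at 82.2% and 47.1%, with 8 further CG losses within 10 kb. The third, of 2059 bp, lies 2.37 kb from Skida1 (chr2:18039655-18041713), at 64.5% and 31.3%, and its 175 cytosines are the most of any long loss. Others among the 10 longest lie 164 kb from Sim1, a transcription factor of hypothalamic neurons (61.0% and 25.6%), 101.5 kb from the zinc finger gene Zfp608 (83.7% and 41.9%) and 70.4 kb from Gadd45g, a stress-response gene (70.9% and 32.9%). Regions 314 kb from Lmo7 (81.4% and 44.3%) and 212 kb from Diaph3, a formin (78.4% and 43.6%), were of the same kind. The exception was a region of 1863 bp, 1013 kb from Cdc73, which went from 94.4% to 75.4%, the highest cKO level of the set. By length class, the median share kept was 50.5% at 500 to 599 bp, 48.7% at 1000 to 1499 bp and 49.9% in the 18 regions of 1500 bp or more. The control medians of these classes were 74.6%, 73.5% and 78.7%, and the median differences -36.0, -37.3 and -38.0 points.

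In the authors' deposited table the area statistic, a score summed over the cytosines of a region, ranks first a region 27.5 kb from Scpep1, with -2678. It holds 12.7 cytosines per 100 bp at a control level of 92.9%, where the densest 20 regions had a median of 56.2%. Skida1 followed with -1379. Several others of the first 10 lie outside genes. A region 492 kb from Mki67, the gene of a proliferation marker (chr7:136208485-136210002), had 75.2% in control and 33.1% in cKO over 96 cytosines. One 4.03 kb from F5, coagulation factor V (chr1:164224304-164225100), had 65.8% and 22.5%. One 0.925 kb from Rhbg, an ammonium transporter gene (chr3:88241030-88241949), had 34.4% and 11.0%. One 70.4 kb from Slc1a3, the glutamate transporter of astrocytes (chr15:8781242-8782401), had 77.0% and 31.9%. Pi16, Lca5l, Hic1 and Jak3, in gene bodies, completed the first 10, with densities of 10.7, 21.2, 12.2 and 8.69 cytosines per 100 bp.

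The largest differences in points were found at quite different densities. The first, 43.1 kb from Zfp36l1, an mRNA-destabilising zinc finger gene (chr12:80064102-80064639), went from 82.8% in control to 24.99% in cKO over 16 cytosines, or 2.97 per 100 bp. The second was the region near Scpep1, with 12.7 per 100 bp. After it came one 318 kb from Cd83 (83.9% to 30.7% over 21 cytosines). A region inside St14, a membrane serine protease gene, went from 80.1% to 27.6% over 22 cytosines. A region 448 kb from Btbd3, which acts in dendrite orientation in the cortex, went from 77.6% to 25.6% over 27 cytosines. The regions named here lie between -57.8 and -52.0 points, beyond the lower quartile of -39.9.

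Long CG losses lay mostly outside protein-coding genes, and farther from them than shorter ones. Of the 2195 regions, 689 shared at least 1 bp with a protein-coding gene body (31.4%, 95% exact binomial interval 29.5% to 33.4%), as did 31.0% of the shorter CG losses (30.6% to 31.5%) and 91.5% of the CG gains (90.3% to 92.5%). Outside genes, the nearest gene body was at a median of 71.1 kb, against 50.2 kb for shorter losses. The share within 10 kb outside a gene was 7.33% (6.28% to 8.51%) for long and 12.4% (12.1% to 12.7%) for shorter losses. The share over 100 kb away was 28.6% (26.7% to 30.5%) for long and 23.0% (22.6% to 23.4%) for shorter losses. These intervals treat regions as independent, which neighbours are not. Of the 1506 long losses outside protein-coding genes, 288 (19.1%) overlapped a lncRNA gene. A miRNA hairpin lay in 1 long loss, Mir6338 near Smtnl2 (85.9% in control, 59.9% in cKO).

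Levels varied little with position, while density did. Inside genes the medians were 73.4% in control and 36.4% in cKO, within 10 kb of a gene 74.6% and 36.4%, at 10 to 100 kb 74.0% and 35.98%, and beyond 100 kb 75.3% and 37.1%. Density was 4.23 cytosines per 100 bp inside genes and 3.11 beyond 100 kb. A start of a protein-coding gene model lay within 1 kb of 38 of the 2098 long losses on autosomes other than 18 (1.81%, 1.28% to 2.48%), and of 2.23% of the shorter losses (2.09% to 2.38%). The start itself was covered in 7 long losses (0.334%) and in 0.166% of the shorter ones. With every listed transcript start, the shares within 1 kb were 2.72% of the long and 2.48% of the shorter losses, so the order depends on the definition.

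Many genes had more than 1 long CG loss in or near them. Each region was assigned to the protein-coding gene it overlaps, or else to the nearest, and the 2195 regions fell to 1497 genes, of which 1099 had 1 and 36 had 5 or more. Of 20560 autosomal protein-coding genes, 510 (2.48%) carried a long loss in the body, 3977 (19.3%) carried a CG loss of any length there, and 1076 (5.23%) were nearest to a long loss outside genes. Prdm16 had the most, with 17, all in its body, at 49.4% to 90.1% in control and 17.6% to 52.0% in cKO. CG losses of any length assigned to it numbered 69. Zfp608 had 11, of which 1 lay in the body and the others up to 515 kb away, at 44.1% to 83.7% in control and 9.44% to 45.4% in cKO. It had 113 CG losses of any length. Over all autosomal CG losses, 4.96% were long. Counts per gene were not adjusted for gene length or for the number of CG losses of any length.

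Among the other genes with the most long losses, some had them all in the flanking DNA and others in the body. Bcl11a, a zinc finger transcription factor of cortical neurons, had 9, all to one side of the gene at 112 to 804 kb, at 32.6% to 87.6% in control and 8.87% to 58.2% in cKO. Sox9, a transcription factor of glial and cartilage lineages, had 7 at 52.5 to 370 kb on both sides (54.4% to 76.2% in control, 16.9% to 45.9% in cKO). Sox4, of the SoxC group, had 7 at 12.9 to 174 kb (68.6% to 88.7%, 33.6% to 50.1%), and its relative Sox11, named after its values were seen, had 5 at 269 to 403 kb (50.4% to 85.1%, 21.4% to 47.3%). Losses in the body led in Lrmda, a gene of melanocyte differentiation, with 8 of its 9 inside. They also led in Rad51b, a DNA repair gene, with 9 of 9, and in Spata13, with 8 of 8. Tenm3, a teneurin of synaptic adhesion, had 7, of which 4 were inside. CG losses of any length numbered 50 for Bcl11a, 38 for Sox9, 42 for Sox4 and 38 for Sox11. They numbered 65 for Lrmda, 71 for Rad51b, 38 for Spata13 and 81 for Tenm3. The bodies of Lrmda and Tenm3 span 1037 and 1297 kb, against 321 kb in Prdm16. Whether any of these regions acts on the gene it was assigned to was not tested.

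**Figure D3:**
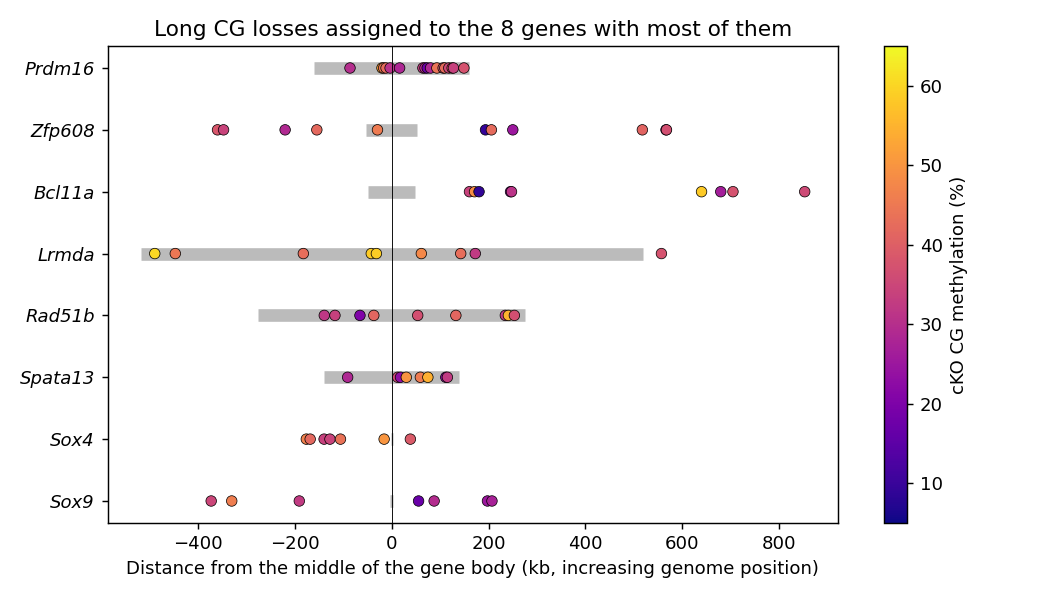
Positions of the long CG losses assigned to the 8 genes with the most, as distance in kb from the middle of the gene body (x axis), 1 row per gene; grey bars are gene bodies and each point is 1 region coloured by its cKO level in percent. In Prdm16, Rad51b and Spata13 all points lie on the gene body, whereas all points of Bcl11a, Sox4 and Sox9 lie outside it.

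Some long losses lay close together. Of 2176 neighbouring pairs on the same chromosome, 39 lay within 1 kb of each other and 125 within 10 kb, against a median gap of 424 kb. The pair near Neurod1 is separated by 80 bp, with 34.3% in control and 7.50% in cKO in one region and 30.4% and 8.71% in the other. In Jak3, a cytokine receptor kinase gene, the gap is 69 bp, with 63.0% and 29.4% beside 72.0% and 33.5%. In Nkd1, an inhibitor of Wnt signalling, it is 81 bp, with 70.1% and 31.7% beside 82.3% and 48.6%. In Abca4 it is 308 bp, with 60.7% and 22.6% beside 82.0% and 42.2%. Control levels were close within the Neurod1 pair and farther apart within the Abca4 pair. These pairs were chosen after their values were seen. Another CG loss of any length lay within 5 kb of the midpoint of 61.2% of the long losses (59.2% to 63.3%) and of 52.2% of the shorter ones (51.7% to 52.7%).

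Among genes of cortical development, those of area patterning had the highest share with a long CG loss in or nearest to them of the 16 lists examined. Of all 20560 autosomal protein-coding genes, 1505 (7.32%) had a long loss in the body or were the nearest gene of one outside, with 2.48% in the body and 5.23% as nearest genes. Of 29 genes of cortical area patterning, 15 did (51.7%), 1 of them in the body. A CG loss of any length lay in the body of 14 of the 29 (48.3%), against 19.3% of all genes. The long losses of this list had medians of 72.3% in control and 33.1% in cKO. Among them were regions 21.8 kb from Emx1 (68.5% and 29.8%) and 152 kb from Epha7, an ephrin receptor gene (79.4% and 44.7%). The one assigned to Nr2f1, a nuclear receptor that sets area borders, lies 1098 kb away (71.5% and 32.3%). Of 19 upper layer identity genes 6 had a long loss nearest to them (31.6%) and none in the body, where 26.3% had a CG loss of any length. Regions near Cartpt (77.9% and 39.3%), Pou3f3 (78.8% and 29.0%) and Lmo4 (84.4% and 41.1%) lay 82.4, 777 and 177 kb away. Of 21 deep layer identity genes 6 had a long loss in the body or nearest (28.6%), with Sox5 (66.6% and 27.9%) in the body. The longest regions of Tle4 (60.7% and 23.9%) and Etv1 (54.0% and 19.5%) lay 291 and 431 kb away. A CG loss of any length lay in the body of 57.1% of this list. List genes were not matched on length or on the distance to their neighbours, both of which change how often a gene is the nearest, and the part of these in the shares was not tested.

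Markers of other cell types had shares from 5.88% to 37.5%, beside 7.32% of all genes. For a CG loss of any length in the body, shares were 33.3% (interneuron), 41.2% (oligodendrocyte), 43.75% (microglia), 56.25% (astrocyte) and 62.5% (endothelial and mural). Of all genes, 19.3% had one. Of 27 interneuron identity genes 6 were nearest genes (22.2%) and 0 had a long loss in the body, with regions 46.4 kb from Sst (79.4% in control, 39.6% in cKO), 14.2 kb from Npy (61.5% and 34.3%), 459 kb from Nr2f2 (84.2% and 50.3%) and 59.7 kb from Sox6 (71.1% and 36.4%). Of 16 astrocyte markers 6 had a long loss in the body or nearest (37.5%), with Nfia (82.6% and 41.6%) and Slc1a3 in the body and Sox9 and Fgfr3 (67.1% and 28.6%) as nearest genes. Of 16 endothelial and mural markers 4 did (25%), all as nearest genes. Regions lay 36.5 kb from the glucose transporter gene Slc2a1 (66.2% and 30.4%) and 132 kb from Kdr (64.1% and 28.7%). Those of Pecam1 (71.2% and 32.9%) and Cdh5 (69.6% and 29.3%) lay 16.0 and 574 kb away. Of 16 microglia markers, 2 did (12.5%), with regions 158 kb from Sall1 (81.9% and 44.5%) and 17.7 kb from the complement gene C1qb (38.1% and 14.3%). Of 17 oligodendrocyte lineage markers, 1 did (5.88%), the myelin gene Mbp (70.6% and 40.6%). Since the libraries are bulk tissue, the cell type in which these levels differ cannot be told apart.

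Other lists ranged from 0 to more than the share of all genes. Of 69 developmental transcription factors of other lineages 15 did (21.7%), 9 in the body (13.0%, against 2.48% of all genes). A CG loss of any length lay in the body of 27 (39.1%), against 19.3% of all genes, so a raised share was also seen without the length limit. That share was 31.7% for synaptic adhesion, 53.8% for imprinted and 0 for activity-regulated genes. The 15 transcription factors are described next. They include Prdm16, Hic1 (47.1% in control, 19.5% in cKO), Tbx1, Twist2, for which the longest region lies 41.3 kb away (76.1% and 35.9%), and Irx3, with one 195 kb away (72.8% and 35.5%). Of 41 synaptic adhesion genes 8 did (19.5%). The longest region assigned to Tenm3 lies 105 kb away (67.2% and 32.0%), and that of Cadm1 250 kb away (71.4% and 33.1%). Adgrl2 had one 389 kb away (84.7% and 47.0%), and Cntnap2 one in the body (69.4% and 34.9%, over 6 cytosines). Of 26 imprinted genes 4 did, with Plagl1 (73.2% and 35.1%), Gnas (79.8% and 45.5%) and Kcnq1 (61.7% and 22.8%) in the body and Cdkn1c (88.8% and 49.4%) as a nearest gene. Among 30 activity-regulated genes 3 did, all as nearest genes. Regions lay 30.8 kb from Dusp6 (67.1% and 29.6%), 145 kb from Nr4a3 (69.3% and 28.7%) and 14.3 kb from Klf4 (72.6% and 38.1%).

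For enzymes of chromatin 1 or 2 genes per list did, and the shares lay around the 7.32% of all genes. In lists this small, 1 gene more or less moves a share across that value, so no difference is read from them. Of 14 H3K36 methyltransferases and demethylases 2 did (14.3%). Regions lay 0.919 kb from Kdm2b (70.2% in control, 36.5% in cKO) and 7.46 kb from Setd3 (73.8% and 39.5%). Nsd1 itself was not among them. Of 17 writers, erasers and readers of DNA methylation 1 did (5.88%), Dnmt3b, a de novo methyltransferase (66.9% and 28.4%, 15.5 kb away). Of 23 Polycomb and H3K27 enzymes 1 did (4.35%), Jarid2, with its longest region 368 kb away (73.1% and 37.1%). A CG loss of any length lay in the body of 14.3%, 17.6% and 4.35% of these lists in turn, against 19.3% of all genes. None of the 39 Hox genes had a long loss in the body or nearest. A CG loss of any length lay in the body of 4 of them (10.3%), against 19.3% of all genes.

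**Figure D4:**
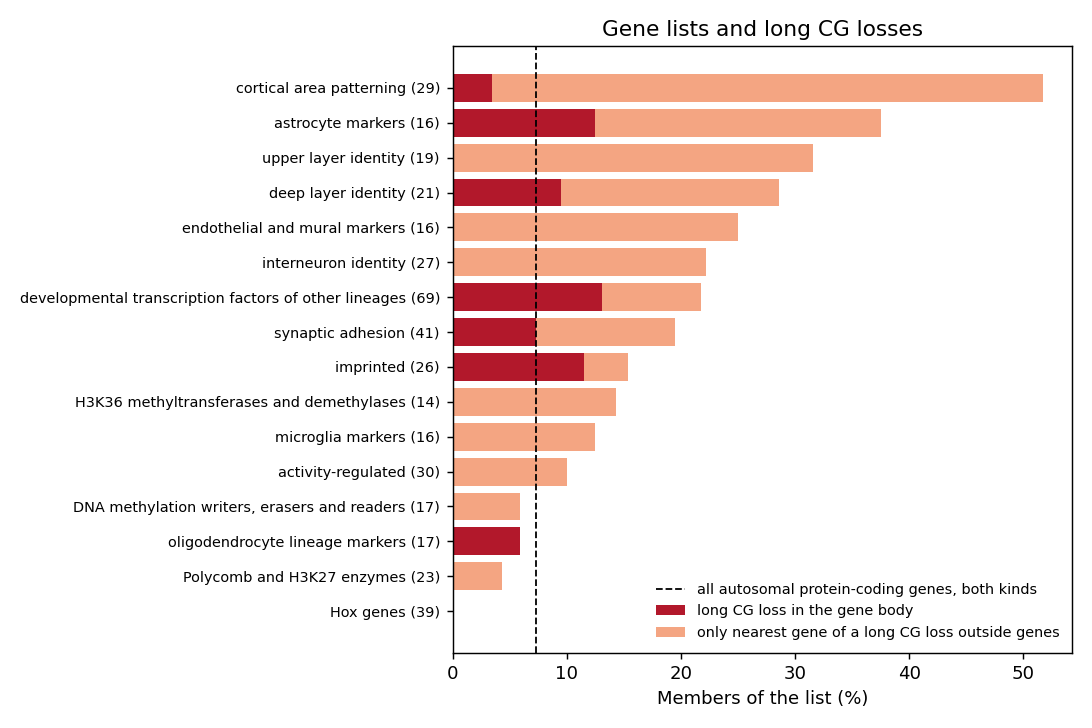
Share of the matched genes of each list (x axis, percent; number of genes in brackets) that have a long CG loss in the gene body (dark bars) or are only the nearest gene of one outside genes (light bars). The dashed line is the share of all autosomal protein-coding genes, 7.32%; the bar of cortical area patterning reaches 51.7% and that of Hox genes is 0.

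The listed levels outside CG were often lower in cKO at the same places. A CHH region (H stands for A, C or T) lower in cKO overlapped 483 of the 2195 long CG losses (22.0%, 95% exact binomial interval 20.3% to 23.8%) and 4.39% of the shorter ones. Because longer regions meet more of the genome, the same was counted within 1 kb of each midpoint, a window added after seeing the data. There a CHH loss lay beside 35.1% of the long losses (33.1% to 37.2%), 20.4% of the shorter losses (20.1% to 20.8%) and 0.386% of the CG gains (0.185% to 0.709%). The share went from 17.6% in losses under 100 bp to 33.6% from 500 to under 750 bp and 44.3% in the 192 regions of 1000 bp or more. None of the long losses had a CHH or CHG region higher in cKO within 1 kb (0 of 2195, which allows a share of up to 0.137%), and 0.0618% of the shorter losses did, so that no difference was detectable. The 563 CHH losses that overlap long CG losses had medians of 5.35% in control and 0.859% in cKO, and the other 44001 autosomal CHH losses 5.53% and 1.02%.

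**Figure D5:**
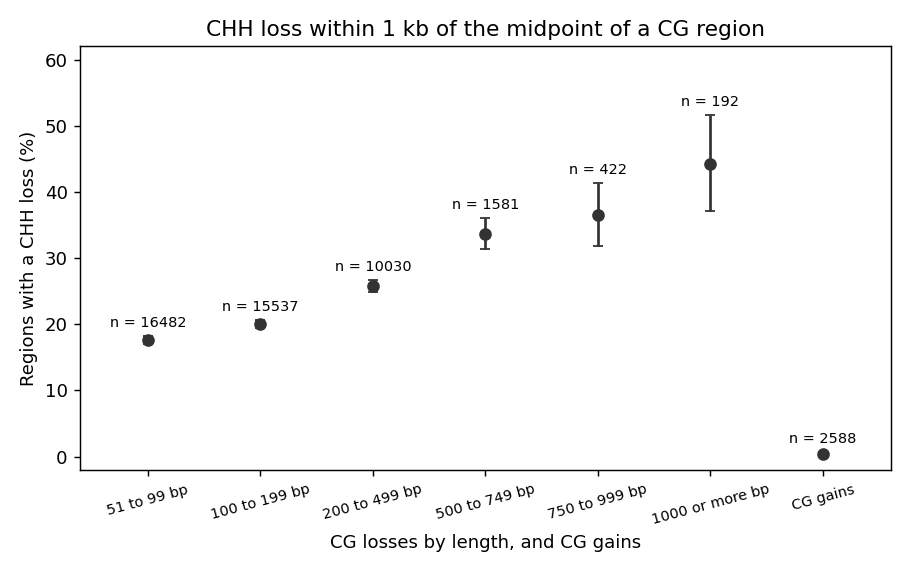
Share of CG regions (y axis, percent) that have a CHH region lower in cKO within 1 kb of their midpoint, for CG losses by length and for CG gains (x axis); points are shares, bars are 95% exact binomial intervals over regions, and n is the number of regions. The share is 17.6% in the shortest class, 44.3% at 1000 bp or more and 0.386% for CG gains.

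The levels outside CG were small, and mitochondrial DNA, too, had listed regions with less in cKO. In the 4 CHH regions listed on mitochondrial DNA, over 3967 cytosines, the control mean was 6.52% and the cKO mean 0.510%, and in the 10 CG regions there 5.36% and 0.673%. Of the 563 CHH losses on long CG losses, 66 (11.7%) had a difference beyond -5.87 points, the median of those mitochondrial regions, as did 16.1% of all 44564 autosomal CHH losses. Counting only such CHH or CHG losses, those within 1 kb touched 7.20% of the long CG losses and 3.995% of the shorter ones. The conversion rate of the bisulfite treatment is not given, so a group difference in conversion and one in methylation cannot be told apart at these low levels. The part that the mitochondrial difference has in the CHH calls and in the CG levels was not tested.

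Among the CHH losses on long CG losses, the authors' deposited table gives the area statistic of largest size in Lrmda. There, 297 cytosines went from 6.87% in control to 0.932% in cKO, on a CG region at 83.7% and 42.9%. Beside Tcf7l2, a transcription factor of Wnt signalling, 224 cytosines went from 6.02% to 1.03%, on a CG region at 85.2% and 45.9%. In Slc1a3, 207 cytosines went from 6.02% to 1.16%, on a CG region at 64.6% and 26.2%. In St14, 149 cytosines went from 8.37% to 0.827%. A CHG region lower in cKO overlapped 8 long losses. One of them, 367 kb from Mki67 and apart from the region described above, went from 7.41% to 0.723% over 31 cytosines, beside a CHH loss from 5.17% to 0.669% in the same CG region. These regions were chosen by their area statistic after the data were seen.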

How the data were processed

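Whole-genome bisulfite sequencing was done on 2 cKO and 2 control libraries. CASAVA, Bowtie2 and mm10 are named in the submitters' processing notes. Not given in the sources used here are the caller, its thresholds and the conversion rate. The authors deposited regions with a mean methylation fraction from 0 to 1 per group, printed here as a percent, and an area statistic, a score with no fixed range. The difference was computed as cKO minus control. The deposited number of cytosines equals the CG cytosines of both strands in 194 of 203 regions inside RefSeq start windows (95.6%), and of 1 strand in 1 region.

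Gene bodies (20560 autosomal protein-coding genes) came from RefSeq, GRCm38.p6, leaving out entries in the first 3 Mb, and starts from a table with 16457 of these genes and none on chromosome 18. A region was given to the shortest overlapped gene, else the nearest. Scripts used Python 3.11.15, pandas 2.3.3, numpy 2.4.6 and SciPy 1.17.1, and the interval functions were tested on simulated data. Intervals are 95% exact Clopper-Pearson over regions. The upper limits given for counts of 0 are instead 3 divided by the number of regions. For 0 of 2195, the exact interval reaches 0.168%. No test was run, since values per library were not used here.

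The members and the 16 gene lists (410 of 425 genes matched) were chosen with earlier results of these data known. Genes were named by rank of length, area statistic, difference, density, control level and number of long losses, and up to 4 per list by length, passing over predicted models. Some genes that this rule names are not reported here.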

Additional observations from a re-analysis of the deposited data

How the results depend on the processing

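No paired analysis was possible because the table holds 1 mean per group, and for the same reason no library could be left out. The density from genome sequence was not run, as no genome was used here. With a minimum of 750 bp, 614 regions were left, with a median difference of -37.4 points, 3.64 cytosines per 100 bp, 1.18% at gene starts, a median distance of 81.9 kb and 43.0% with a CHH or CHG loss within 1 kb, against 38.1% at 500 bp. With a difference of at least 0.3, the medians were -37.2 points and 3.70 cytosines per 100 bp. Joining losses within 200 bp gave 2846 regions. Weighting by cytosines gave a mean difference of -36.0 points. Counting all annotated genes raised the overlap to 45.0%. At gene starts, a window of 2 kb gave 3.10% and every transcript start 2.72%. The distance to the nearest gene start had a median of 123 kb. For losses outside CG, overlap gave 22.2%, differences of at least 0.05 gave 14.8%, the midpoint window 35.3% and differences above the mitochondrial median 7.20%. With at least 10 cytosines the density was 3.99. The midpoint window, the mitochondrial limit and the minimum of 10 cytosines were chosen after seeing the data. Direction is fixed by the choice of regions. Depth is unknown, so precision per region is too.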

Other observations

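The X chromosome has 243 CG losses and 0 of 500 bp or more, which allows a share of up to 1.23%, against 4.96% on autosomes. The longest there has 385 bp. The median X loss has 105 bp and 8.99 cytosines per 100 bp, at 76.3% in control and 41.7% in cKO. Among autosomes, the share of CG losses that are long ran from 3.62% on chromosome 7 to 5.79% on chromosome 12.

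The 14 autosomal CG gains of 500 bp or more had medians of 27.7% (control) and 52.7% (cKO), at 14.0 cytosines per 100 bp, and 1 of them lay outside protein-coding genes. The long losses stood at 3.80 per 100 bp, with 1506 of 2195 outside.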
